A study of Mus musculus with 6 samples.

Results

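The Kruppel-like factors are zinc finger proteins, and the 10 described here are Klf2, Klf3, Klf4, Klf5, Klf6, Klf7, Klf9, Klf10, Klf11 and Klf13. They were taken by gene symbol from a table of 53735 features, where each symbol occurred as its own row. The question was what engulfing dead cells does to cells that can form bone. Stromal cells of wild-type (wt) mouse bone marrow, sorted as negative for haematopoietic lineage markers, CD45 and CD31 and positive for CD51, were grown in 2% oxygen to passage 2 or 3. For the fed group, 5000000 apoptotic thymocytes carrying a dye were added per well and the culture was kept at 5% oxygen for 24 h, after which cells carrying the label were sorted. The control group had no thymocytes added and was sorted by flow cytometry as well, and which oxygen its wells had during those hours is not stated. Control cells had no thymocyte label to be sorted on. Selection of labelled cells and a response to feeding therefore cannot be told apart in the differences below. Each group had 3 libraries. Whether these stand for different cultures or mice is not stated either, so a p-value here reflects the spread between these samples alone, which may be technical.

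Kruppel-like factors bind CACCC boxes and GC-rich boxes of promoters through zinc fingers at the carboxyl end, which they share with the SP factors. Their amino ends differ and recruit different partners. Klf2, Klf4, Klf5, Klf6 and Klf7 belong to the branch that mostly activates transcription and works with histone acetyltransferases. Klf3 belongs to the branch that binds the corepressor CtBP, and Klf9, Klf10, Klf11 and Klf13 to the branch that binds the Sin3a corepressor. In stromal cells members of the family are known for parts in adipocyte and osteoblast differentiation and in early responses to injury and growth factors.

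Total counts ran from 19069074 to 22410047 per library. Of the 12 stromal markers listed all were detected well enough to be tested, with summed levels of 36674 to 38149 CPM (counts per 1e6 of the library total, scaled for composition by TMM) in control and 32120 to 34066 in fed cells. Of the 12, 7 fell and 1 rose, where 19.0% of all tested genes fell and 20.5% rose. Of 20 thymocyte markers, 18 were too low to test and 5 (Cd3g, Rag2, Cd2, Cd5 and Ptcra) were at 0 in every library. Others had low counts that were higher in every fed than in every control library, namely Rag1 (0, 2 and 1 in control, 7, 6 and 12 in fed), Ptprc (0, 1 and 0, then 5, 2 and 3), Dntt (0 in control, then 5, 1 and 3), Cd8b1 (0, then 3, 2 and 2) and Cd8a (0, then 1, 1 and 3). Themis went the other way, at 1 count in each control library and 0, 0 and 1 in fed. Lck and Tcf7, the 2 markers tested, did not pass, at -0.62 and 0.10 on the log2 scale. Without the filter on low counts 2 of the 20 were called higher and 0 lower. The summed level of the list, most of it from Tcf7 at 48 to 69 counts, was 3.35 to 3.53 CPM in control and 3.49 to 4.93 CPM in fed cells. Of 12 macrophage markers 8 were too low to test, and Fcgr1 was at 0. Adgre1 (0 in control, then 5, 3 and 3) and Tyrobp (0, then 3, 4 and 2) had low counts that were higher in every fed library. The other untested markers overlapped between the groups. The summed level was 14.1 to 15.6 CPM in control and 20.1 to 21.4 CPM in fed cells. Lyz2 (whose near-identical copy Lyz1 makes its reads less certain) and Cd14 were higher, and Csf1r and Cd68 did not pass. Cd14 passed only at an adjusted p of 0.0490 that leaving out any single library moved over 0.05. Without the filter on low counts 3 of the 12 were called higher and 0 lower. Of 10 endothelial markers 5 (Cdh5, Emcn, Tie1, Sox17 and Cldn5) were at 0, and the sums were 8.06 to 8.74 and 8.78 to 9.52 CPM. The part of these cell types in the differences below was not tested. In such bulk libraries fewer cells of a type and less RNA per cell cannot be told apart.

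Promoter sequences from RefSeq (GRCm38.p6) were held for 8 of the 10 members, all but Klf5 and Klf10. Those of Klf4 and Klf6, the higher members with the smallest p, and of Klf9 and Klf13, the lower members, are printed 5′ to 3′ in the direction of the gene. Each is the 250 bases before the annotated start, and capitals mark CACCC and GGGCGG on either strand, the boxes that this family and the SP factors bind. They lie at chr4:55532476-55532725 (minus strand) for Klf4, chr13:5861239-5861488 (plus) for Klf6, chr19:23140976-23141225 (plus) for Klf9 and chr7:63938916-63939165 (minus) for Klf13.
Klf4: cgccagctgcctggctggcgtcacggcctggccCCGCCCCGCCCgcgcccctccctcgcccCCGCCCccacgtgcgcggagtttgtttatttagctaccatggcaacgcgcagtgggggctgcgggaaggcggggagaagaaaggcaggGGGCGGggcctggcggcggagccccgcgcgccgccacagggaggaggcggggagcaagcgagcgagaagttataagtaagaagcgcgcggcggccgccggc
Klf6: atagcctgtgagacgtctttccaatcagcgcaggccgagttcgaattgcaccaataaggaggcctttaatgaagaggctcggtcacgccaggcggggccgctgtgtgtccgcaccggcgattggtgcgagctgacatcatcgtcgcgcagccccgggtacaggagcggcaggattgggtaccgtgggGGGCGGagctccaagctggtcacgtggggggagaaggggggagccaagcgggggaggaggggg
Klf9: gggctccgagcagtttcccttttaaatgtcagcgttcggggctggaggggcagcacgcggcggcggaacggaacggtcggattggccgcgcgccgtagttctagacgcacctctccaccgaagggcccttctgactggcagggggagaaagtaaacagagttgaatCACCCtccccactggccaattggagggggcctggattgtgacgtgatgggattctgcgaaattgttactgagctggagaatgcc
Klf13: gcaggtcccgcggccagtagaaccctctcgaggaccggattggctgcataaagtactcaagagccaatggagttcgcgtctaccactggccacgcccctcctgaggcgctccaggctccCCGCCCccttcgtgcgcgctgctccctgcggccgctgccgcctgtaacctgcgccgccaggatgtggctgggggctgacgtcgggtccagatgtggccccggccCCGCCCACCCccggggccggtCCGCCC

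The Klf4 window held 4 matches of GGGCGG and none of CACCC, the Klf6 window 1 and 0, the Klf9 window 0 and 1, and the Klf13 window 3 and 1. Matches of the pair can overlap, as they do in Klf13. Over the 8 windows, GGGCGG was present in 7, against 32.7% of the 32851 promoter windows of the table, and CACCC in 5, against 52.0%. The member windows were rich in G and C, at 59.2% to 78.4% where the median of all windows was 52.4%. The most such boxes lay before Klf3, with 6 matches of GGGCGG and 5 of CACCC. The windows of Klf3, Klf7, Klf11, Klf2 and Klf6 overlap exons of GENCODE release M21 by 133, 102, 97, 29 and 7 bases. The starts of these genes therefore differ between annotations. The Klf7 window lies wholly inside the gene as GENCODE places it, with a start at base 64122282 on the minus strand.

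Other motifs were searched on both strands of the same windows. CACGTG, the E-box bound by factors such as Clock and Arntl, was found in 3 of the 8 (6.02% of all windows), once each in Klf4, Klf6 and Klf11, and beginning 182, 43 and 214 bases before the start. The MEF2 site was found in Klf2 alone (0.508% of all windows), 118 bases before the start. TGACGTCA and the CArG box were found in none of the 8 (1.55% and 1.47% of all windows). The stretches around the E-boxes and the MEF2 site are shown because clock genes and MEF2 factors are among the genes reported below, with the motif in capitals, at chr4:55532640-55532669 (minus), chr13:5861434-5861463 (plus), chr12:24651145-24651174 (plus) and chr8:72318932-72318965 (plus). A match is a description of the letters and no measure of binding.
Klf4: cgcccccgccccCACGTGcgcggagtttgt
Klf6: ctccaagctggtCACGTGgggggagaaggg
Klf11: cccggaccaaaaCACGTGccgccgcccgcc
Klf2: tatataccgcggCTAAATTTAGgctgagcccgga

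**Figure D1:**
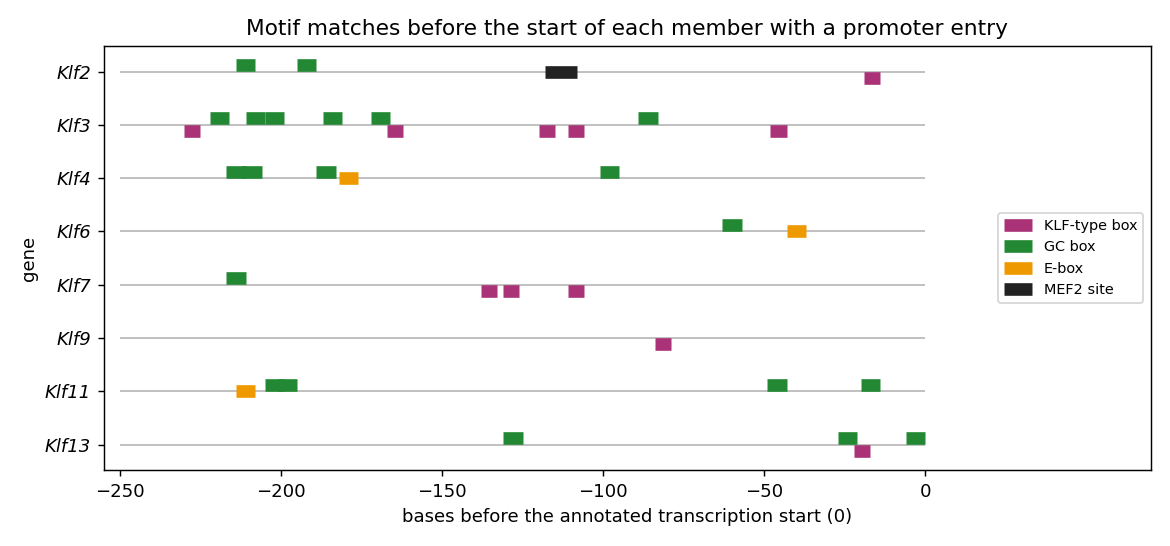
Positions of motif matches (coloured blocks, either strand) in the 250 bases before the annotated start of the 8 members with a promoter entry; the horizontal axis is the distance from the start in bases. GC boxes (GGGCGG) appear in 7 of the 8 windows and are densest before Klf3, the E-boxes lie before Klf4, Klf6 and Klf11, and the MEF2 site lies before Klf2.

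All 10 members were expressed and passed the filter on low counts. Divided by exon length, which allows levels of different genes to be compared, Klf6 was highest in control cells at 30.5 ± 0.706 CPM per kb (SD, n = 3), followed by Klf2 at 21.9 (range 20.3 to 23.2), Klf4 at 18.6 ± 1.05, Klf3 at 15.1 ± 0.393 and Klf10 at 13.4 ± 0.930. Klf13 (10.2 ± 0.304), Klf9 (9.81 ± 0.0473), Klf7 (4.10 ± 0.259) and Klf11 (3.16 ± 0.0533) came next. Klf5, at 0.207 ± 0.0366 CPM per kb, was far below the others. In control cells no pair of neighbours in this order overlapped between libraries, though Klf13 and Klf9 were close, with a lowest value of 9.93 for Klf13 and a highest of 9.85 for Klf9.

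In fed cells the order was the same except that Klf4 stood level with Klf2. Klf4 reached 25.1 ± 0.868 CPM per kb and Klf2 24.8 ± 1.82, and their libraries overlapped. Klf13 (8.52 ± 0.201) and Klf9 (8.43 ± 0.425) overlapped as well. The exon length is the union over all GENCODE transcripts of a gene, so a gene whose cells use short transcripts is set too low on this scale.

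**Figure D2:**
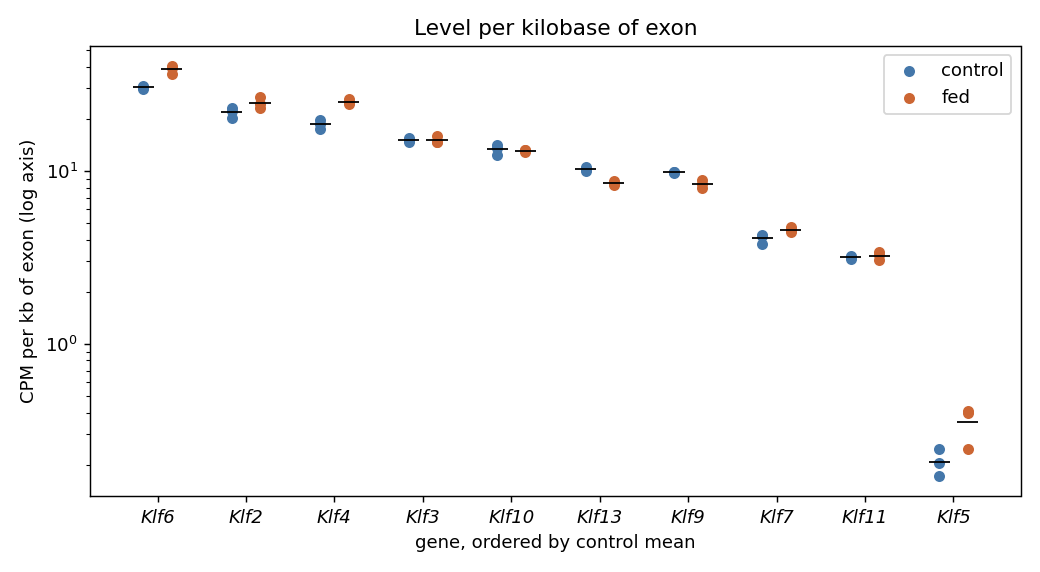
Level of each member in CPM per kb of exon (vertical log axis) in the 3 control (blue) and 3 fed (orange) libraries, with black bars for group means and genes ordered by the control mean. Klf6 leads in both groups, Klf4 rises to the level of Klf2 in fed cells, and Klf5 lies below 1 CPM per kb.

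Of the 10 members, 7 differed between fed and control cells by edgeR's quasi-likelihood test at an adjusted p under 0.05, where 39.5% of all 13092 tested genes did. Klf2, Klf4, Klf5, Klf6 and Klf7 rose, 5 of 10 against a background of 20.5% higher, and Klf9 and Klf13 fell, 2 of 10 against 19.0% lower. Klf3, Klf10 and Klf11 did not pass. The groups did not overlap for 6 members, where they did not for 49.1% of all tested genes. All changes but that of Klf5 were under 1.5-fold, and the median absolute log2 fold change was 0.20 over the members and 0.16 over all tested genes. The calls were not equally firm. Those of Klf4, Klf6, Klf9 and Klf13 held under every one of 15 alternative settings, and those of Klf2, Klf5 and Klf7 were lost under several, so that DESeq2 called only 2 members higher.

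Set out by branch, all 5 members of the activating branch rose, with log2 fold changes from 0.16 to 0.74. Among them are Klf2, Klf5 and Klf7, whose calls were lost under several settings. Of the 4 members of the Sin3a-binding branch, 2 fell and 2 did not pass, with values from -0.27 to 0.03. The only member of the CtBP-binding branch, Klf3, did not pass. Outside the 10, Klf12 of the CtBP-binding and Klf16 of the Sin3a-binding branch had values of 0.45 and 0.14 and did not pass. The members were set out by branch after their values had been seen, and no test was made of this pattern.

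Klf4, a factor of pluripotency and of epithelial and smooth muscle differentiation (chromosome 4, 55527143 to 55532466), was measured at 60.0, 53.6 and 56.9 CPM in the control libraries and at 76.3, 79.3 and 74.0 CPM in the fed libraries. Every fed library lay above every control library, and the gap between the groups was wider than the spread inside either. Klf4 rose by 0.43 ± 0.047 (SE) on the log2 scale (adjusted p = 4.12e-07), an increase of 34.7% over the control mean.

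Klf6, a widely expressed factor known to be induced early after tissue injury (chromosome 13, 5861482 to 5870394), had 135, 130 and 136 CPM in control and 177, 174 and 161 CPM in fed libraries. The groups were separate here too, with fed replicate 3 the lowest of the fed libraries. Klf6 rose by 0.35 ± 0.041 on the log2 scale (adjusted p = 1.09e-06). In reads not divided by exon length, Klf6 came close to Klf3 in fed cells and was above it in fed replicate 1 only. The log2 ratio of Klf6 to Klf3 reads within a library is not affected by scaling between libraries. It was -0.33, -0.35 and -0.36 in control and 0.10, -0.04 and -0.04 in fed libraries. Per kb of exon, Klf6 was above Klf3 in both groups, at 30.5 and 15.13 CPM in control and 38.85 and 15.08 CPM in fed cells.

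Klf2, known for quiescence of endothelium and for control of lymphocyte migration (chromosome 8, 72319033 to 72321656), gave 40.9, 37.5 and 42.9 CPM in control and 45.3, 42.7 and 49.4 CPM in fed libraries. The groups overlapped, because fed replicate 2 lay just below control replicate 3. The log2 fold change of 0.18 ± 0.060 had an adjusted p of 0.0215. Leaving out control replicate 2 ended the call (adjusted p = 0.141), as did leaving out fed replicate 3 (0.140) and testing by DESeq2 (0.0575).

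Klf7, known from neurite outgrowth (chromosome 1, 64029447 to 64122282), had 34.2, 34.9 and 30.9 CPM in control and 38.8, 37.2 and 35.8 CPM in fed libraries. The groups were separate by less than 1 CPM. Klf7 rose by 0.16 ± 0.057 on the log2 scale (adjusted p = 0.0334). It missed the threshold with control replicate 3 left out (0.152), with fed replicate 1 (0.113) or 2 (0.0780) left out, and by DESeq2 (0.105). Of the Klf7 exons, 39.3% are shared with Gm26649 on the opposite strand. That gene had at most 1 count in any library of the deposited table.

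Klf5, a factor of proliferating epithelium and of smooth muscle remodelling (chromosome 14, 99298691 to 99315036), had the largest fold change and the fewest reads. Its counts were 23, 27 and 17 in control and 43, 45 and 29 in fed libraries, which are 1.07, 1.28 and 0.895 CPM and 2.13, 2.07 and 1.28 CPM. Fed replicate 3 lay only just above control replicate 2. The log2 fold change was 0.74 ± 0.25 (95% interval 0.23 to 1.25, adjusted p = 0.0212). Of the 6 single libraries, leaving out control replicate 1 (0.0533) or 3 (0.0666), or fed replicate 1 (0.0828) or 2 (0.0960), ended the call, as did DESeq2 (0.103).

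Klf13, an activator of the chemokine gene Ccl5 in T cells (chromosome 7, 63886351 to 63938915), was at 79.4, 77.1 and 74.8 CPM in control and 63.7, 62.9 and 65.8 CPM in fed libraries. All fed libraries were below all control libraries, with a log2 fold change of -0.27 ± 0.042 (adjusted p = 3.66e-05). In reads not divided by exon length, Klf4 was below Klf13 in control and above it in fed cells. The log2 ratio of Klf4 to Klf13 reads within a library was -0.40, -0.52 and -0.39 in control and 0.26, 0.33 and 0.17 in fed cells. Per kb of exon, Klf4 was above Klf13 in both groups, at 18.64 and 10.24 CPM in control and 25.1 and 8.516 CPM in fed cells.

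Klf9, a factor induced by glucocorticoids and thyroid hormone (chromosome 19, 23141226 to 23168134), was the member with the most even control libraries, at 47.4, 47.0 and 47.2 CPM, and had 42.7, 38.6 and 40.6 CPM in fed libraries. The groups did not overlap, and the spread was wider in the fed group. The log2 fold change was -0.22 ± 0.050 (adjusted p = 0.00145).

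The remaining members differed little. Klf3, a repressor known from adipocytes and blood cells, had 169, 166 and 175 CPM in control and 165, 179 and 165 CPM in fed libraries, with a log2 fold change of 0.00 ± 0.040 (95% interval -0.09 to 0.08, adjusted p = 0.951). Klf10, first known as a gene induced early by TGF-beta in osteoblasts, had 59.4, 51.8 and 57.0 CPM in control and 55.2, 53.9 and 55.3 CPM in fed libraries. The fed values lay inside the control range, and the interval of the log2 fold change ran from -0.14 to 0.07 (adjusted p = 0.641). Klf11, the close relative of Klf10 and also induced by TGF-beta, had 13.9, 13.5 and 13.8 CPM in control and 14.8, 13.2 and 14.1 CPM in fed libraries, with an interval of -0.12 to 0.19 (adjusted p = 0.747). The upper bounds of all 3 intervals lay below the estimate of 0.43 for Klf4.

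**Figure D3:**
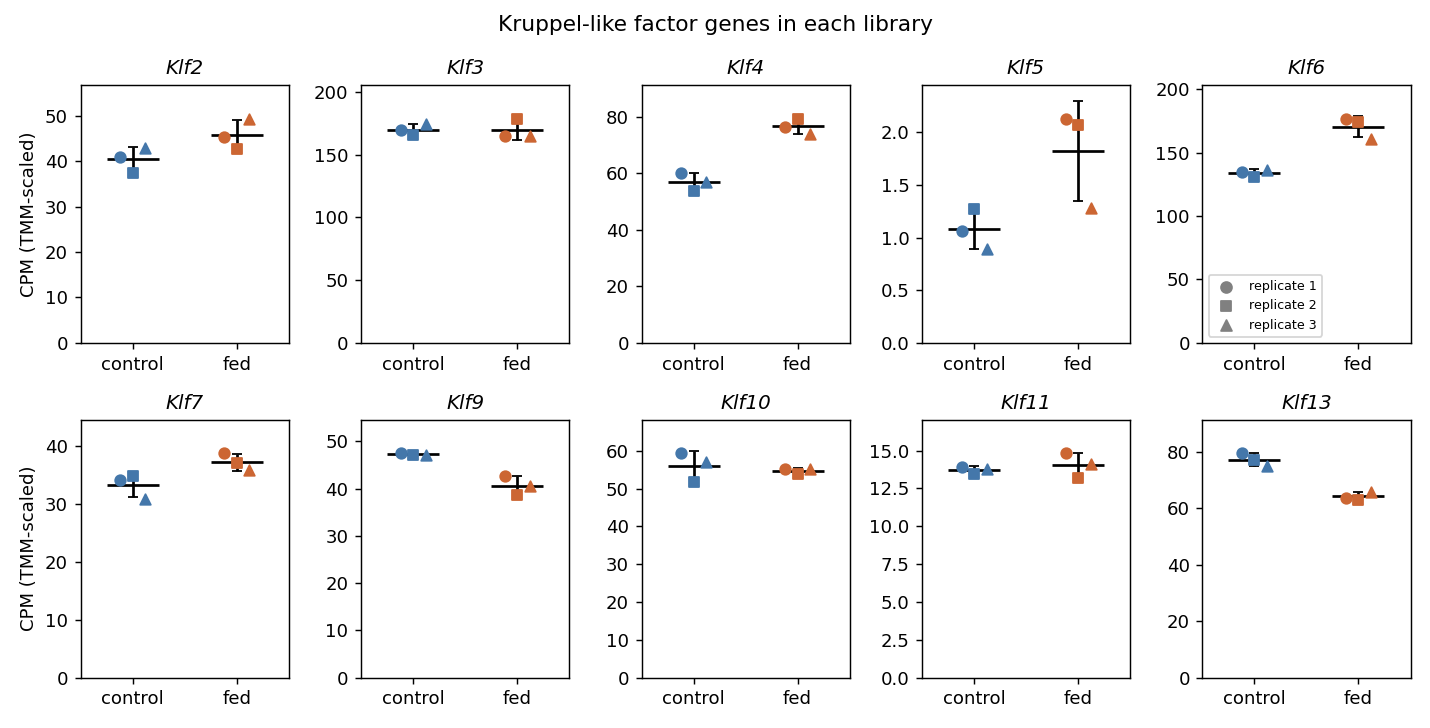
CPM of each of the 10 members in every library (blue control, orange fed; circle, square and triangle for replicates 1, 2 and 3), with group mean and SD in black and axes starting at 0. Fed libraries lie above control for Klf4, Klf5, Klf6 and Klf7 and below for Klf9 and Klf13, and the groups overlap for Klf2, Klf3, Klf10 and Klf11.

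Summed over the 10 members, expression was 613 to 641 CPM in control and 662 to 683 CPM in fed cells. Klf3 and Klf6 made up the largest shares of these reads. The share of Klf6 was at most 21.5% in the control libraries and at least 24.3% in the fed libraries. The share of Klf3 was 26.4% to 27.5% in control and 24.2% to 26.2% in fed libraries. These are shares of reads and not of transcripts, since Klf3 has the longest exons of the 10 at 11243 bases.

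Several other genes of the family were barely detected. Of the 7 other KLF genes, Klf1, Klf8, Klf14 and Klf17 had too few reads to test, with at most 6 counts in a library. Klf15, known for control of amino acid and glucose metabolism under glucocorticoids, fell from 5.33, 6.05 and 6.48 CPM in control to 4.71, 4.28 and 4.14 CPM in fed libraries, with a difference of -0.44 ± 0.12 on the log2 scale (adjusted p = 0.00713, and 0.0617 by DESeq2). Klf12, a repressor of the CtBP-binding branch, had 1.02 ± 0.281 and 1.39 ± 0.266 CPM (adjusted p = 0.185), and Klf16, of the Sin3a-binding branch, 22.9 ± 1.95 and 25.3 ± 2.57 CPM (adjusted p = 0.151, and 0.0423 without control replicate 3).

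Among 9 SP factors 6 were tested, of which 1 rose and 1 fell, against 20.5% and 19.0% of all tested genes. Sp7, the osteoblast factor osterix, had 54.4, 49.3 and 51.2 CPM in control and 79.8, 73.3 and 76.3 CPM in fed libraries. Its log2 fold change of 0.57 ± 0.048 (adjusted p = 1.39e-08) was above that of Klf4. Sp1, a ubiquitous factor of GC-box promoters, had 109, 106 and 106 CPM in control and 97.6, 96.5 and 93.0 CPM in fed libraries (log2 fold change -0.16 ± 0.038, adjusted p = 0.00214). Sp2, Sp3, Sp4 and Sp6 did not pass, at 0.03, -0.07, -0.26 and 0.45 on the log2 scale, and Sp4 passed without fed replicate 2 (adjusted p = 0.0189). The Sp6 exons are covered to 86.7% by Gm11532 on the opposite strand, so the Sp6 reads cannot be assigned with certainty. The deposited counts hold no row under the symbol Gm11532.

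**Figure D4:**
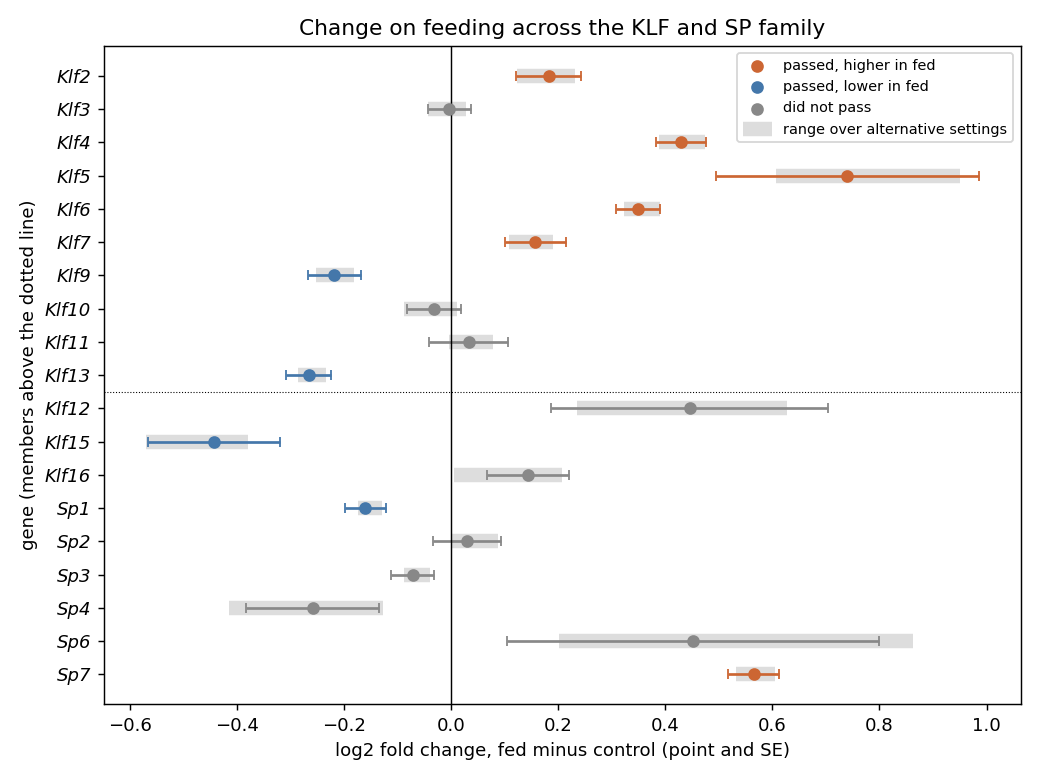
Log2 fold change, fed minus control, with SE for the 10 members (above the dotted line) and the 9 other KLF and SP genes tested; orange passed as higher, blue passed as lower, grey did not pass, and pale bars give the range over the alternative settings. Among the members the pale bars of Klf3, Klf10 and Klf11 cross 0 and those of the others stay clear of it, and Klf5 has the widest error. The bars show fold changes only, and the calls of Klf2, Klf5 and Klf7 were lost under several settings.

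Cofactors through which the family acts changed in both directions. Of 14 tested, 3 rose and 5 fell, where 20.5% of all tested genes rose and 19.0% fell. The median log2 fold change was 0.01 beside -0.01 over all tested genes. The higher genes were Sap30, Fhl3 and Hdac2, at 0.32, 0.25 and 0.12 on the log2 scale (adjusted p = 0.0266, 0.00245 and 0.0189). The histone acetyltransferase genes Kat2b, Crebbp and Ep300 all fell. Kat2b went from 42.2 ± 1.88 to 31.7 ± 2.50 CPM, a difference of -0.42 ± 0.060 on the log2 scale (adjusted p = 1.29e-05), while Crebbp and Ep300 had log2 fold changes of -0.39 and -0.27. Of the Sin3 corepressors, Sin3b fell (-0.23) and Sin3a had a value of 0.00 that did not pass. Ncor1 also fell (-0.19). The CtBP genes Ctbp1 and Ctbp2, partners of Klf3, had values of 0.06 and 0.05 that did not pass. The 3 higher cofactors became 1 by DESeq2 and 1 without fed replicate 2.

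Of 16 upstream regulators, 4 rose and 1 fell, against 20.5% and 19.0% of all tested genes. Smad2, a signal transducer of TGF-beta receptors, rose by 0.30 on the log2 scale (adjusted p = 8.09e-05), and the ubiquitin ligases Smurf1 and Smurf2, which act on that pathway, rose by 0.24 and 0.12. The call of Smurf2 was lost without control replicate 2 (0.0659). Smad3, Smad4 and Tgfbr2 of the same pathway had values of -0.05, 0.01 and -0.03 that did not pass. The receptor gene Tgfbr1 was the lower gene, by -0.11 on the log2 scale at an adjusted p of 0.0436. That p was over 0.05 with control replicate 1 (0.162) or 3 (0.0715) left out, with fed replicate 1 (0.143), 2 (0.0777) or 3 (0.0627) left out, and by DESeq2 (0.185). The kinase gene Mapk7 (ERK5) and its activator gene Map2k5, which induce Klf2 and Klf4 through MEF2 factors in endothelium, did not pass, at -0.01 and -0.09 on the log2 scale. Mef2a, Mef2c and Mef2d had -0.03, -0.25 and -0.10 and did not pass either. The 4 higher became 2 without control replicate 2.

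Genes reported elsewhere as targets of the family did not move in a common direction. Of 17 tested, 4 rose and 8 fell (median -0.18), where 20.5% of all tested genes rose and 19.0% fell. Thbd, the thrombomodulin gene activated by Klf2 and Klf4 in endothelium, rose from 201 ± 9.17 to 269 ± 4.47 CPM, or by 0.42 ± 0.039 on the log2 scale (adjusted p = 3.69e-08). S1pr1, a target of Klf2 in lymphocytes, had a log2 fold change of -0.22 and fell, and Cdkn1a, the cell cycle inhibitor activated by Klf4 and Klf6, also fell (-0.22). Ccnd1, the cyclin that drives entry into S phase, rose by 0.71, while the kinase gene Dapk1 fell from 52.9 ± 3.75 to 26.9 ± 0.583 CPM. Pparg, the adipocyte factor, rose by 0.49, and Cebpa and Cebpb fell (-0.24 and -0.46). Whether a gene is reported as activated or repressed was not taken into account in these counts. These targets were reported in other cell types, and whether the members bind them here was not measured.

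Klf2, Klf4, Klf6 and Klf10 are also known as genes that respond quickly to serum, wounding or the handling of cells, so the immediate-early genes were set beside them. Of 18 tested, 3 rose (Maff, Myc and Fosl1) and 1 fell (Jund), against 20.5% and 19.0% of all tested genes. The list's median was 0.33 on the log2 scale, with wide spread between libraries. Egr1 had 202, 123 and 97.0 CPM in control and 289, 177 and 169 CPM in fed libraries, and Fos had 61.5, 28.2 and 25.9 CPM and 92.9, 55.9 and 53.9 CPM. Control replicate 1 and fed replicate 1 were the highest of their groups, and this held for 16 of the 18 genes, against 16.7% of all tested genes. Among the KLF members it held for 2 of 10, Klf9 and Klf11.

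The summed level of the immediate-early list was 1192, 885 and 866 CPM in control and 1423, 1083 and 1057 CPM in fed libraries. With replicate 1 of both groups left out, an alternative chosen after seeing the data, Klf4 and Klf6 had log2 fold changes of 0.47 and 0.33 and Klf9 and Klf13 of -0.25 and -0.24, and these 4 still passed. Klf2, Klf5 and Klf7 had log2 fold changes of 0.20, 0.61 and 0.15 there, beside 0.18, 0.74 and 0.16 with all libraries. They did not pass with these 4 libraries (adjusted p = 0.0630, 0.136 and 0.102), so 2 members were higher in place of 5. The number of immediate-early genes called higher was 10 there in place of 3. The part of the immediate-early response in the KLF values was not tested.

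Klf9 and Klf15 are known targets of the glucocorticoid receptor, and other genes induced by it moved in both directions, 3 of 9 tested rising and 2 falling (median 0.04). Over all tested genes the shares were 20.5% rising and 19.0% falling. Fkbp5, a chaperone of the receptor, rose from 30.8 ± 0.579 to 45.8 ± 0.878 CPM and the kinase gene Sgk1 by 0.38 on the log2 scale, while Ddit4 and Mt2 fell by 1.31 and 0.45. The receptor gene Nr3c1 had a log2 fold change of 0.02 that did not pass.

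Klf10 and Klf11 are named for early induction by TGF-beta, and other early genes of this pathway and of BMP signalling were taken as 1 list. Of 13 tested, 7 rose and 1, Ski (-0.13), fell (median 0.17). Of all tested genes, 20.5% rose and 19.0% fell. Id1, which blocks DNA binding by helix-loop-helix partners, rose from 18.2 ± 1.39 to 41.6 ± 1.79 CPM. Smad6, an inhibitor of BMP signalling, and Ctgf, a matricellular growth factor gene, had log2 fold changes of 0.54 and 0.52. Smad7 and Skil, feedback inhibitors of TGF-beta signalling, had values of 0.07 and -0.03 that did not pass, as Klf10 and Klf11 did not.

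Several KLF genes cycle with the circadian clock in other tissues, Klf9, Klf10 and Klf15 among them. Of 19 clock genes tested, 6 rose and 6 fell (median 0.15), against 20.5% and 19.0% of all tested genes. The activator gene Arntl went from 12.5, 13.4 and 14.5 CPM in control to 3.07, 3.36 and 3.00 CPM in fed libraries, and its relative Npas2 had a log2 fold change of -2.09. The output gene Dbp had 41.9, 40.4 and 43.6 CPM in control and 89.1, 82.9 and 92.7 CPM in fed libraries, and the repressor gene Nr1d2 rose by 0.61. Of the members with an E-box in the window searched, Klf4 and Klf6 rose and Klf11 did not pass. Klf15, which is not among the members, had 2 matches of CACGTG in its window and fell, at -0.44 on the log2 scale. Its adjusted p was 0.00713 by the edgeR test and 0.0617 by DESeq2. Whether the E-boxes play a part in these changes was not tested. The labels give 1 collection time, so no phase can be read from these libraries.

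**Figure D5:**
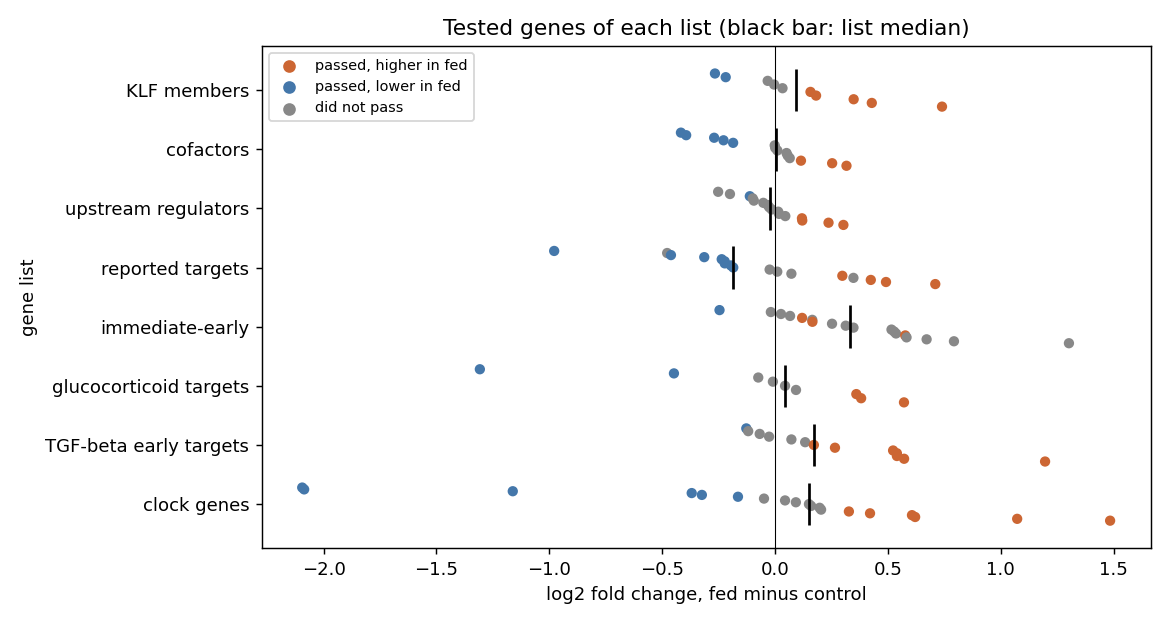
Log2 fold change, fed minus control, of every tested gene (points) in the 10 members and 7 related lists, with orange for passed and higher, blue for passed and lower, grey for did not pass, and a black bar at each list's median. The members lie within a narrower range than the clock genes, and the cofactors centre near 0 with 5 lower and 3 higher.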

How the data were processed

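RNA of 6 libraries, 3 control and 3 fed, was sequenced from 200 ng of total RNA with a stranded kit that selects polyadenylated RNA, per the labels' protocols. The authors deposited raw counts for each gene symbol. Tools named per the submitters' processing notes are STAR 2.6.0c, Subread 1.6.1 (featureCounts), Trimmomatic 0.36 and MultiQC 1.5, with build GRCm38. The strand setting and annotation release were not given in the sources used here. Reads shared with an opposite-strand gene are therefore uncertain.

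The test was run with edgeR 4.0.16 (R 4.3.3): filterByExpr, TMM scaling, and the robust quasi-likelihood F-test of fed against control on all genes, without a replicate block, called at a Benjamini-Hochberg adjusted p under 0.05. The script was tested on simulated data. CPM are counts per 1e6 of the TMM-scaled total; SEs and 95% intervals come from the F statistic. Coordinates and exon lengths come from GENCODE M21 on GRCm38, promoters from RefSeq. Replicates differed beyond sampling noise and were each counted. Alternatives were RLE scaling, library totals only, no filter, DESeq2 1.42.0, limma-voom (limma 3.58.1), a block for the replicate number, no robust estimation, a threshold of 0.01 and each library left out. Members and lists were chosen with earlier results of these data known. Named genes are the members, tested KLF and SP genes, and of each other list, the called genes lowest in adjusted p (at most 4). Other genes named were chosen after their values were seen. Some genes that the rule takes are not named here.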

Additional observations from a re-analysis of the deposited data

How the results depend on the processing

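Klf4, Klf6, Klf9 and Klf13 kept their direction and their call under all 15 alternatives, with log2 fold changes of 0.39 to 0.47, 0.32 to 0.39, -0.25 to -0.18 and -0.29 to -0.23. Klf3, Klf10 and Klf11 passed under none. The 5 members higher became 2 by DESeq2, 2 at an adjusted p under 0.01, 2 without replicate 1 of both groups (chosen after seeing the data), and 3 to 4 when single libraries were left out. The 2 members lower were 2 under every alternative. The 5175 genes called over the whole table were 3615 to 5848 across the alternatives. Among other KLF and SP genes, the 1 higher was 1 to 2 and the 2 lower were 2 to 3 when single libraries were left out, and 1 was lower by DESeq2. The cause of these losses was not tested.

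With the replicate number as a block, 5 members were higher and 2 lower, the same counts as without it, and 5848 genes were called in all. The block changed no call among the members. Deviations of same-numbered libraries correlated at 0.10, 0.02 and 0.13, and those of other pairs at -0.12 to 0.03. Control replicate 2 correlated about equally with fed replicates 1 and 2. The main test had no block because the labels do not say that the numbers pair the samples. Whether same-numbered libraries share a culture cannot be told from these values. Under the block 13 immediate-early genes were higher in place of 3, and the count was 8 by limma-voom and 9 without robust estimation. Klf5 had the fewest reads of the members, at 17 to 45 counts a library, and the widest SE.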
